A study of Homo sapiens with 156 samples.

Results

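Mitosis and kinetochore genes are the genes that carry a cell from the G2 phase through chromosome segregation and cytokinesis. Here they are a list of 40 genes named by symbol, out of the 59939 genes in each expression table, and all 40 were found in the 3 tables under a single Ensembl identifier. The genes were chosen by function, with earlier results of these data known. Every member passed the filter on low values in every line, so counts below are out of 40.

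RNA came from human lines of acute myeloid leukaemia, 3 in all: MV411, THP1 and NOMO1. Each is known to carry a rearranged KMT2A gene. Cells were plated 1 day before treatment and given DMSO, the solvent, for 1, 2, 4 or 6 days, or a compound. GSK3685032 (GSK032 below) and DAC (decitabine) were each given at 400 nM for 1, 2, 4 or 6 days, and at 3.2, 16, 80, 400, 2000 and 10000 nM for 4 days. GSK3484862 (GSK862) was given at 1000 nM and GSK3510477 (GSK477) at 10000 nM, each for 2 or 4 days. The series title speaks of DNMT1 inhibitors. The sample titles give only the name, dose and day of a compound, and whether GSK477 inhibits DNMT1 was not established here. GSK032 is known as a reversible inhibitor of DNMT1, the maintenance DNA methyltransferase, and decitabine is a cytosine analogue that is built into replicating DNA and traps the enzyme there. There were 26 groups in each line and 2 libraries in each group, which makes 156 libraries. Whether the 2 libraries of a group are separate cultures is not in the labels, and the spread behind a p-value may therefore be technical.

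Mitotic genes are transcribed in a wave late in the cell cycle. In quiescent and G1 cells the DREAM complex holds many of them down through a short promoter element called CHR, and in G2 the factors B-MYB, MuvB and FOXM1, together with NF-Y bound at CCAAT elements, drive them. CDK1 with cyclin B then starts mitosis, the Aurora and Polo kinases build the spindle, and the kinetochore ties each chromosome to it. The spindle checkpoint holds back the anaphase-promoting complex (APC/C) until all chromosomes are attached. In a bulk RNA sample the level of such genes depends both on the share of cells in G2 and mitosis and on the RNA of each gene per cell, and these cannot be told apart here.

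The promoters of the members shared letters that the list did not use. RefSeq start sites on GRCh38.p14 gave 40 promoter windows of 300 bases, from 250 before the start to 50 after it, for 33 of the 40 members. FOXM1, BIRC5, TTK, TPX2, UBE2C, BUB3 and AURKA had no entry. The letters of the CHR element (TTTGAA or TTCGAA, on either strand) were in 29 of the 40 windows (72.5%), against 16.4% of 35116 windows over all genes. CCAAT, on either strand, was in 31 of the 40 (77.5%), against 34.6% of all windows. Both stood in 60% of the members' windows and in 6.38% of all windows. Within the 60 bases before the start, where the CHR element of known mitotic promoters lies, 16 windows of the members (40%) held the CHR letters, against 2.88% of all windows. These are matches of letters and not binding sites.

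The 100 bases before the start are printed for 7 members with CHR letters within 60 bases of the start, for CDC20, whose CHR letters begin 65 bases before it, and for MAD2L1, which had neither motif there and was among the members with the largest changes. They run 5′ to 3′ on the gene's own strand and end at the base before the start, with CHR letters and CCAAT (or its reverse complement ATTGG) in capitals. In CDCA8 and MKI67 the CHR letters and ATTGG overlap.
CCNB2: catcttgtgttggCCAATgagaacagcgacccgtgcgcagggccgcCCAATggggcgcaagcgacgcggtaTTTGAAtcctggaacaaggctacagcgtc
PLK1: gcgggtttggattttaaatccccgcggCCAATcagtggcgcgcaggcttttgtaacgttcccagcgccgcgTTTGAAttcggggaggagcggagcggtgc
CDCA8: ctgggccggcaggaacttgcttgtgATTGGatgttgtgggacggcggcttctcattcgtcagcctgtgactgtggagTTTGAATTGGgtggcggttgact
CDC20: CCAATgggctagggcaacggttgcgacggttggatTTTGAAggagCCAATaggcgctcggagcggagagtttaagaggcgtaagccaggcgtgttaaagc
HMMR: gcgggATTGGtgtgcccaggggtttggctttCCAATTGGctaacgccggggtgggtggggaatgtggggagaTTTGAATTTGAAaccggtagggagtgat
PRC1: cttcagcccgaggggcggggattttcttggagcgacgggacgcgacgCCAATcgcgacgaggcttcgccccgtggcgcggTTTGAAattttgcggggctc
MKI67: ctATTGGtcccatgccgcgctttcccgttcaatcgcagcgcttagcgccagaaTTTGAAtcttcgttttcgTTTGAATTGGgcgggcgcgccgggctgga
KIF4A: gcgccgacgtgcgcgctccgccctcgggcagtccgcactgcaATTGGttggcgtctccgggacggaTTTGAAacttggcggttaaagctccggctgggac
MAD2L1: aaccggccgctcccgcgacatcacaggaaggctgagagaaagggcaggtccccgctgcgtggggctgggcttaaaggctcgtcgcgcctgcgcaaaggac
The windows are CCNB2 from chr15:59105046-59105145 on the plus strand, PLK1 from chr16:23678789-23678888 on the plus strand and CDCA8 from chr1:37692416-37692515 on the plus strand. Those of the spindle and exit genes are CDC20 from chr1:43358881-43358980 on the plus strand, HMMR from chr5:163460532-163460631 on the plus strand and PRC1 from chr15:90994536-90994635 on the minus strand. The last are MKI67 from chr10:128126424-128126523 on the minus strand, KIF4A from chrX:70290004-70290103 on the plus strand and MAD2L1 from chr4:120066849-120066948 on the minus strand.

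Levels are FPKM, fragments per length of transcript and per total of mapped fragments, as the authors deposited them. Changes are differences of log2(FPKM + 0.5) with their standard errors, fitted with limma over all 52 libraries of a line, and adjusted p-values cover all genes tested there. A member passed a comparison with an adjusted p under 0.05, and changed by 2-fold or more where its log2 change was also 1 or larger in size. The share of all tested genes that passed in the same direction is given beside the first count of each comparison as the background.

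The lines expressed the defining markers of myeloid cells: 10 of 12 such markers in MV411, 11 in THP1 and 12 in NOMO1 had a mean of at least 1 FPKM in the DMSO libraries of day 4. Their summed level ran from 1202 to 1356 FPKM in MV411, from 700.0 to 760.4 in THP1 and from 5769 to 5990 in NOMO1. With 400 nM for 4 days the sum was 3676 to 4018 FPKM under GSK032 and 2314 to 2755 under DAC in MV411, 725.4 to 781.2 and 799.9 to 819.5 in THP1, and 7170 to 7367 and 3308 to 3800 in NOMO1. LYZ, which encodes lysozyme, made up most of the MV411 sum, with means of 743.1, 3125 and 1978 FPKM in the DMSO, GSK032 and DAC libraries. Markers of other cell types stood far under the myeloid sum in the MV411 DMSO libraries. There 6 T-cell markers summed to 0.417 to 0.631 FPKM, with CD3E at 0, 5 B-cell markers to 1.28 to 1.97 and 5 fibroblast markers to 0.765 to 0.939. In MV411 4 erythroid markers summed to 8.53 to 9.29 FPKM under DMSO, nearly all of it EPOR, with ALAS2 at 0. The 5 epithelial markers summed to 8.93 to 10.46 FPKM under DMSO in MV411, with KRT18 the highest and KRT19 at 0, and to 14.2 to 19.0 under DAC. In NOMO1 the epithelial sum was 37.8 to 38.0 FPKM under DMSO, 63.6 to 64.6 under GSK032 and 133 to 164 under DAC. The NOMO1 fibroblast sum was 7.65 to 7.78 FPKM under DMSO and 32.05 to 36.35 under DAC. In THP1 the DAC libraries had higher sums than DMSO for all 5 of these lists, the epithelial one at 11.9 to 13.1 FPKM against 1.89 to 2.74. In NOMO1 the T-cell sum was 10.3 to 12.6 FPKM under DMSO and 155.9 to 169.0 under DAC, nearly all of it CD3D. The part of these shifts in the changes of mitotic genes was not tested.

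In the DMSO libraries of day 4 the members were well expressed in all lines. The tables of the lines may be scaled apart, so levels are compared within a line. CDC20, the activator of the APC/C, had the highest mean in THP1 (391.4 FPKM), BUB3, a checkpoint protein, in MV411 (234.9 FPKM), and CCNB1, cyclin B1, in NOMO1 (153.3 FPKM). The lowest were CDC25C, the phosphatase that activates CDK1, in MV411 (10.23 FPKM) and NOMO1 (10.57 FPKM), and ESPL1, which encodes separase, in THP1 (11.54 FPKM). CDC20 stood at 73.29 FPKM in MV411 and 89.95 in NOMO1, and BUB3 at 96.17 in THP1 and 123.5 in NOMO1. MKI67, whose product Ki-67 coats mitotic chromosomes, stood at 51.42 FPKM in MV411, 43.54 in THP1 and 11.59 in NOMO1. MKI67 varied widely between libraries of a group: it stood at 41.7 and 61.1 FPKM in the DMSO libraries of MV411 on day 4 and at 32.0 and 17.8 on day 6.

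The members fell together with both DNMT1 inhibitors in MV411, and with smaller medians in THP1, and in NOMO1 most of them fell under DAC but few under GSK032. With 400 nM for 4 days in MV411, 40 of 40 members passed as lower under GSK032 (17.3% of all tested genes) and 40 of 40 under DAC (19%), with median log2 changes of -1.13 and -1.13. Of these, 30 and 31 fell by 2-fold or more (2.76% and 3.34% of all genes). In THP1, 34 passed as lower under GSK032 (13.8%) and 40 under DAC (19.4%), with medians of -0.39 and -0.56. The NOMO1 counts were 4 lower under GSK032 (8.29%), with a median of -0.07, and 28 lower under DAC (26.2%) with 1 higher (26.1%), with a median of -0.32. The 4 members under GSK032 in NOMO1 are 10% of the list, near the background share. Over all tested genes the median change of each of these comparisons lay between -0.03 and 0.

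The library values show how far the groups were apart. Each of the 2 libraries with 400 nM for 4 days was below both DMSO libraries for 40 of 40 members under either compound in MV411, and for 39 under GSK032 and 40 under DAC in THP1. In NOMO1 it was so for 34 members under DAC, with 1 above and 5 overlapping. Under GSK032 in NOMO1, 15 members were below, 4 above and 21 overlapped. The GSK032 and DAC comparisons of a line share their DMSO libraries. The same count was not taken over all tested genes, so these counts stand without a background and cannot be set against chance.

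The scaling of the libraries bears on these sizes. At 400 nM on day 4, rescaling by the median ratio of genes between libraries moved the median change of all genes by 0. This held for both compounds in every line. When every library was rescaled to the same FPKM sum, the median change of all genes moved by 0.24 for GSK032 in MV411 and by -0.31 for DAC in THP1, both at 400 nM on day 4. The MV411 medians of the members were then -0.85 and -1.22, and 36 and 40 of 40 passed. In THP1 the GSK032 count fell to 12 and in NOMO1 the counts fell to 0 and 5. Leaving out the first DMSO library of day 4 made the THP1 GSK032 count 22, and leaving out the second GSK032 library made it 21. In NOMO1 the GSK032 count was 0 when the second DMSO library was left out, 1 when either GSK032 library was, and 1 with no filter on low values.

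**Figure D1:**
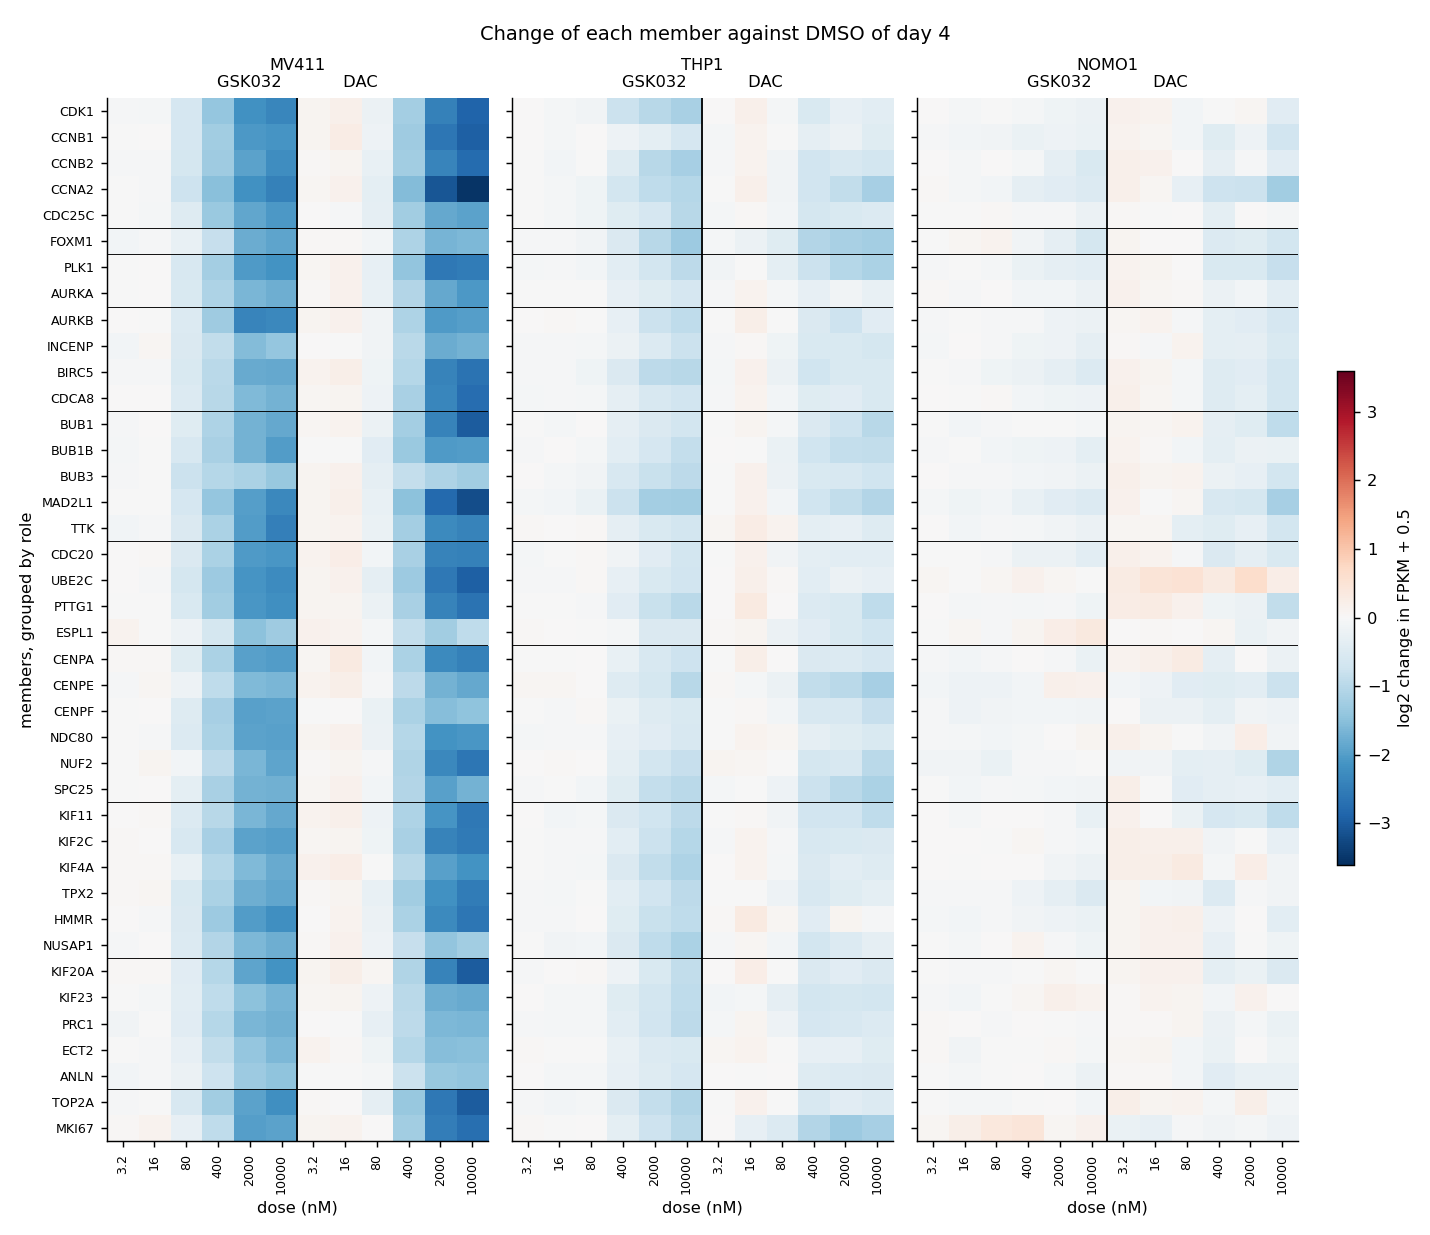
Log2 change of each of the 40 members (rows, grouped by role) against DMSO of day 4 at 6 doses of GSK032 and of DAC (columns, nM) in MV411, THP1 and NOMO1; blue is lower and red higher. The MV411 panel turns blue for every member from 400 nM on under both compounds, down to -3.52 for CCNA2 under 10000 nM DAC.

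The cyclin-CDK group, CDK1 with its cyclins and its activating phosphatase, had the largest median fall of the 10 roles in MV411 under GSK032. All 5 members passed with both compounds there, with medians of -1.33 and -1.26. CCNB1 (ENSG00000134057, chr5:69167010-69178245, plus strand), cyclin B1, is its most abundant member. In MV411 it stood at 119 and 117 FPKM with DMSO, 42.4 and 58.4 with GSK032 and 52.7 and 44.9 with DAC, and neither treated group overlapped the DMSO libraries. The log2 changes of CCNB1 were -1.24 ± 0.12 (adjusted p = 3.66e-09) and -1.27 ± 0.12 (adjusted p = 2.15e-09). In THP1 CCNB1 stood at 136 and 124 FPKM, 122 and 109, and 114 and 94.7, with both treated groups under DMSO. The change passed under DAC, at -0.32 ± 0.10 (adjusted p = 0.0102), and not under GSK032, at -0.17 ± 0.10 (adjusted p = 0.234). In NOMO1 the values were 156 and 150.5, 135 and 124, and 112 and 115 FPKM. There CCNB1 passed under DAC, at -0.43 ± 0.10 (adjusted p = 0.000717), and not under GSK032, at -0.24 ± 0.10 (adjusted p = 0.108).

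CCNA2, cyclin A2, which works in S phase and at mitotic entry, was the member with the largest fall in MV411 and was among the 3 largest in 5 of the 6 comparisons at 400 nM on day 4. It stood at 75.2 and 67.7 FPKM in the MV411 DMSO libraries, 23.8 and 25.9 with GSK032 and 26.0 and 22.2 with DAC, with log2 changes of -1.50 ± 0.10 and -1.55 ± 0.10. In THP1 it stood at 66.8 and 59.3, 41.5 and 38.6, and 42.2 and 35.3 FPKM, and in NOMO1 at 78.6 and 80.3, 65.5 and 62.2, and 45.7 and 48.7 FPKM. Both treated groups lay under the DMSO libraries in every line. The NOMO1 changes of CCNA2 were -0.31 ± 0.08 (adjusted p = 0.00542) under GSK032 and -0.75 ± 0.08 (adjusted p = 4.33e-09) under DAC. CDK1 itself fell by 1.39 on the log2 scale in MV411 under GSK032 and had the largest fall in THP1, -0.78 ± 0.11 (adjusted p = 3.19e-06), yet in NOMO1 it differed from DMSO by -0.06 ± 0.12 and -0.03 ± 0.12 under the 2 compounds, neither of which passed. CCNB2 and CDC25C changed by -1.29 and -1.33 in MV411, by -0.47 and -0.45 in THP1, and by -0.07 and -0.04 in NOMO1 under GSK032, and the NOMO1 values did not pass.

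FOXM1 (ENSG00000111206, chr12:2857681-2877155, minus strand), the transcription factor of the late cell-cycle genes, fell in all lines under DAC. In MV411 it stood at 22.9 and 24.4 FPKM with DMSO, 12.4 and 13.8 with GSK032 and 11.7 and 9.70 with DAC, a change of -0.83 ± 0.12 (adjusted p = 1.9e-06) and -1.11 ± 0.12 (adjusted p = 1.11e-08). In THP1 it stood at 19.5 and 21.8, 14.2 and 14.0, and 10.1 and 9.08 FPKM, with the DAC libraries below the GSK032 libraries and those below DMSO. The THP1 change under DAC, -1.07 ± 0.09 (adjusted p = 5.43e-11), was the largest of the 40 members there. In NOMO1 FOXM1 stood at 19.7 and 18.3, 16.0 and 18.6, and 14.2 and 12.6 FPKM, and changed by -0.49 ± 0.12 (adjusted p = 0.000853) under DAC, while the GSK032 libraries overlapped DMSO. The difference of the compounds was itself tested at 400 nM on day 4. GSK032 minus DAC was 0.54 ± 0.09 (adjusted p = 2.99e-05) for FOXM1 in THP1, 0.36 ± 0.12 (adjusted p = 0.0151) in NOMO1 and 0.28 ± 0.12 (adjusted p = 0.161) in MV411.

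PLK1 (ENSG00000166851, chr16:23677656-23690367, plus strand), the Polo kinase of centrosome maturation and mitotic exit, stood at 43.4 and 40.0 FPKM with DMSO in MV411, 17.1 and 18.1 with GSK032 and 16.8 and 13.6 with DAC. Its changes there were -1.22 ± 0.12 (adjusted p = 2.18e-09) and -1.43 ± 0.12 (adjusted p = 8.82e-11). In THP1 it stood at 47.1 and 45.8, 34.6 and 36.1, and 26.4 and 27.9 FPKM. Every THP1 library with a compound lay under both DMSO libraries, and those with DAC were the lowest. In NOMO1 PLK1 stood at 39.8 and 43.4, 34.8 and 35.8, and 27.9 and 28.6 FPKM, changes of -0.23 ± 0.08 (adjusted p = 0.0353) and -0.55 ± 0.08 (adjusted p = 6.44e-07). AURKA, the kinase of spindle poles, changed under GSK032 and DAC by -1.11 and -1.05 in MV411, by -0.29 and -0.29 in THP1, and by -0.11 and -0.21 in NOMO1, of which only the NOMO1 value under GSK032 did not pass.

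The chromosomal passenger complex joins the kinase AURKB to INCENP, survivin (BIRC5) and borealin (CDCA8), and corrects wrong attachments of chromosomes to the spindle. All 4 genes passed as lower in MV411 and THP1 under both compounds and in NOMO1 under DAC. INCENP (ENSG00000149503, chr11:62123973-62153163, plus strand) was the most abundant. It stood at 55.5 and 55.7 FPKM with DMSO in MV411, 27.2 and 33.3 with GSK032 and 30.9 and 26.0 with DAC, changes of -0.87 ± 0.10 (adjusted p = 4.92e-08) and -0.96 ± 0.10 (adjusted p = 7.96e-09). In THP1 INCENP stood at 59.2 and 48.7, 47.4 and 44.8, and 37.7 and 36.0 FPKM, and the 2 DMSO libraries lay farther apart than the GSK032 libraries lay from the lower of them. The NOMO1 libraries stood at 48.8 and 45.2, 43.5 and 41.6, and 37.4 and 36.5 FPKM and changed by -0.34 ± 0.11 (adjusted p = 0.00881) under DAC. BIRC5 was the member of this complex that passed under GSK032 in NOMO1, at -0.21 ± 0.07 (adjusted p = 0.0352). AURKB fell most in MV411 under GSK032, by 1.28 on the log2 scale, and changed by -0.04 ± 0.09 in NOMO1, which did not pass.

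The spindle checkpoint genes, BUB1, BUB1B, BUB3, MAD2L1 and the kinase TTK, all passed as lower in MV411 and THP1 under both compounds and in NOMO1 under DAC. BUB3 (ENSG00000154473, chr10:123154277-123170467, plus strand), the most abundant, stood at 246 and 224 FPKM with DMSO in MV411, 112 and 119 with GSK032 and 133 and 126 with DAC. The MV411 changes were -1.02 ± 0.11 (adjusted p = 2.29e-08) and -0.86 ± 0.11 (adjusted p = 3.98e-07), and the treated libraries lay far under DMSO. In THP1 it stood at 104 and 88.5, 67.5 and 61.3, and 71.9 and 58.7 FPKM, with every treated library under both DMSO libraries. NOMO1 had 124 and 123, 119 and 113, and 106 and 107 FPKM, a change of -0.21 ± 0.06 (adjusted p = 0.00296) under DAC.

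MAD2L1 encodes the checkpoint protein MAD2, which binds and holds CDC20. It was among the 3 members with the largest change in every line under GSK032, and in MV411 and NOMO1 under DAC. In MV411 MAD2L1 stood at 69.4 and 61.0 FPKM with DMSO, 22.1 and 27.4 with GSK032 and 25.2 and 21.5 with DAC. The THP1 values were 68.5 and 62.1, 39.4 and 36.7, and 41.1 and 37.9 FPKM. In NOMO1 it stood at 59.6 and 61.0, 49.8 and 50.2, and 38.2 and 42.9 FPKM. No treated library reached the lower DMSO library in any line. Its changes were -1.38 ± 0.12 (adjusted p = 3.69e-10), -0.77 ± 0.08 (adjusted p = 4.41e-08) and -0.27 ± 0.09 (adjusted p = 0.0435) under GSK032 in MV411, THP1 and NOMO1. Among the others BUB1B changed by -1.33, -0.72 and -0.34 under DAC in the same order of lines, BUB1 by -1.23, -0.53 and -0.32, and TTK by -1.23, -0.35 and -0.44, all of which passed.

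The genes of the APC/C and of anaphase onset start the separation of sister chromatids. CDC20 (ENSG00000117399, chr1:43358955-43363203, plus strand) fell in MV411, from 77.4 and 69.2 FPKM with DMSO to 32.29 and 33.63 with GSK032 and 36.8 and 28.6 with DAC, changes of -1.14 ± 0.17 (adjusted p = 3.47e-06) and -1.16 ± 0.17 (adjusted p = 2.2e-06). In THP1, where it was the most abundant member, it stood at 393 and 390.0, 352 and 372, and 300.0 and 309 FPKM. All THP1 libraries with a compound were below DMSO, but the change under GSK032 was -0.11 ± 0.11 (adjusted p = 0.56), the second smallest of the 40, and that under DAC -0.36 ± 0.11 (adjusted p = 0.0122). In NOMO1 CDC20 stood at 80.6 and 99.3, 74.6 and 80.0, and 61.4 and 63.5 FPKM, and passed under DAC at -0.52 ± 0.10 (adjusted p = 5.45e-05).

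UBE2C, the ubiquitin-conjugating enzyme that works with the APC/C, was the only member that passed as higher at 400 nM on day 4, under DAC in NOMO1. In NOMO1 it stood at 70.7 and 74.3 FPKM with DMSO, 79.2 and 81.2 with GSK032 and 89.8 and 93.2 with DAC. The DAC libraries lay above both the DMSO and the GSK032 libraries, and the change, 0.33 ± 0.07 (adjusted p = 7.49e-05), passed as higher. In MV411 UBE2C stood at 128 and 114, 48.6 and 49.0, and 55.4 and 43.1 FPKM and fell by 1.301 on the log2 scale under DAC, and in THP1 its change was -0.39 ± 0.08 (adjusted p = 0.00044). In NOMO1 under DAC, UBE2C was also higher on day 2, at 0.64 ± 0.07 (adjusted p = 1.14e-08), and at 16, 80, 2000 and 10000 nM on day 4, at 0.45, 0.51, 0.63 and 0.25. Other members passed as higher there too on day 2 and at 16, 80 and 2000 nM. By day 6 at 400 nM UBE2C stood at 74.4 and 71.7 FPKM with DMSO and 58.1 and 54.5 with DAC, a change of -0.37 ± 0.07 (adjusted p = 1.34e-05).

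PTTG1, which encodes securin, the inhibitor of separase, changed by -1.27 ± 0.14, -0.40 ± 0.07 and -0.06 ± 0.09 under GSK032 in MV411, THP1 and NOMO1, and only the NOMO1 value did not pass. ESPL1, separase, was the member with the smallest fall in MV411 under GSK032, -0.62 ± 0.14 (adjusted p = 0.000636), and had the smallest change in THP1, -0.07 ± 0.13 (adjusted p = 0.789). Its THP1 libraries stood at 10.9 and 12.2 FPKM with DMSO and 10.1 and 11.8 with GSK032, and the groups overlapped. In NOMO1 ESPL1 stood at 10.8 and 12.6, 11.2 and 13.9, and 11.9 and 12.4 FPKM with DMSO, GSK032 and DAC, which overlapped too.

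The 6 centromere and kinetochore genes hold the histone of the centromere, CENPA, the motor CENPE, the large outer protein CENPF, and NDC80, NUF2 and SPC25 of the NDC80 complex, which grips the microtubule. Medians were -1.13 and -1.06 for MV411, -0.33 and -0.60 for THP1, and -0.07 and -0.32 in NOMO1 under GSK032 and DAC. All 6 passed in MV411 under either compound, and 5 and 6 did in THP1. In NOMO1 the counts were 0 under GSK032 and 3 under DAC. CENPF (ENSG00000117724, chr1:214603195-214664588, plus strand) stood at 57.6 and 61.7 FPKM with DMSO in MV411, 21.7 and 30.4 with GSK032 and 26.4 and 27.7 with DAC. It was at less than its lower DMSO value in each of these 4 libraries, and changed by -1.20 ± 0.14 (adjusted p = 5.29e-08) and -1.13 ± 0.14 (adjusted p = 1.39e-07). In THP1 CENPF stood at 92.5 and 82.6, 77.4 and 70.8, and 60.9 and 56.7 FPKM, and was the kinetochore gene that did not pass under GSK032, -0.24 ± 0.13 (adjusted p = 0.196). The NOMO1 values were 23.4 and 19.9, 21.5 and 19.1, and 17.2 and 16.3 FPKM, with DMSO and GSK032 overlapping and both DAC libraries below them.

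Within the NDC80 complex the subunits moved alike in MV411. NDC80 changed by -1.14 ± 0.10 and -1.03 ± 0.10 under GSK032 and DAC, NUF2 by -0.93 ± 0.13 and -1.08 ± 0.13, and SPC25 by -1.18 ± 0.10 and -1.05 ± 0.10. In THP1 they changed by -0.30 and -0.32, -0.36 and -0.62, and -0.43 and -0.78, and all passed. None of the 3 passed in NOMO1 under either compound on day 4, where the DAC values were -0.11 for NDC80, -0.32 for NUF2 and -0.31 for SPC25. CENPE changed by -0.89 ± 0.14 (adjusted p = 8.45e-06) in THP1 under DAC, the third largest there, and CENPA by -0.32 ± 0.10 (adjusted p = 0.00486) in NOMO1 under DAC.

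Spindle motors and assembly factors include KIF11, which pushes spindle poles apart, the microtubule depolymerase KIF2C, the chromokinesin KIF4A, and the microtubule-binding proteins TPX2, HMMR and NUSAP1. All 6 passed in MV411 and THP1 under both compounds, with medians of -1.09 and -1.13 in MV411 and -0.47 and -0.58 in THP1. In NOMO1 0 passed under GSK032 and 4 as lower under DAC. NUSAP1 (ENSG00000137804, chr15:41332694-41381050, plus strand) stood at 124 and 111 FPKM with DMSO in MV411, 49.5 and 64.5 with GSK032 and 65.8 and 67.0 with DAC. Its changes were -1.05 ± 0.12 (adjusted p = 3.16e-08) and -0.82 ± 0.12 (adjusted p = 1.82e-06), and the difference between the compounds, -0.23 ± 0.12 (adjusted p = 0.282), did not pass. In THP1 NUSAP1 stood at 121 and 107, 81.0 and 77.1, and 77.1 and 68.0 FPKM. In NOMO1 it stood at 103 and 102, 109.8 and 115, and 80.0 and 86.5 FPKM, above DMSO with GSK032 in both libraries, though not past the test at 0.13 ± 0.08 (adjusted p = 0.29), and below DMSO with DAC. KIF11 had the second largest change in NOMO1 under DAC, -0.61 ± 0.14 (adjusted p = 0.000514), while KIF4A changed there by -0.07 ± 0.05 (adjusted p = 0.285) and under GSK032 by 0.00 ± 0.05.

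The midzone and cytokinesis genes, KIF20A, KIF23, PRC1, ECT2 and ANLN, build the central spindle and the contractile ring. They fell in MV411 with medians of -0.91 and -0.97, and 2 of 5 reached a 2-fold fall under each compound, against 5 of 5 and 5 of 5 of the cyclin-CDK group. PRC1 (ENSG00000198901, chr15:90966038-90995629, minus strand), which bundles midzone microtubules, stood at 104 and 94.9 FPKM with DMSO in MV411, 45.4 and 51.1 with GSK032 and 54.7 and 48.1 with DAC, changes of -1.04 ± 0.10 (adjusted p = 3.16e-09) and -0.95 ± 0.10 (adjusted p = 1.56e-08). In THP1 it stood at 103 and 100.3, 74.3 and 81.0, and 68.7 and 65.1 FPKM. The 3 THP1 groups did not overlap. In NOMO1 PRC1 stood at 81.7 and 79.9, 79.0 and 83.5, and 70.0 and 70.5 FPKM. GSK032 and DMSO overlapped there, and PRC1 changed by -0.20 ± 0.06 (adjusted p = 0.00604) under DAC. ANLN, the scaffold anillin, was among the 2 smallest changes in MV411 with both compounds (-0.75 and -0.78), and ECT2, which activates the ring, among the 2 smallest in THP1 under DAC, at -0.29 ± 0.08 (adjusted p = 0.00275).

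TOP2A (ENSG00000131747, chr17:40388516-40417950, minus strand), the topoisomerase that disentangles chromosomes, stood at 143 and 136 FPKM with DMSO in MV411, 53.0 and 63.7 with GSK032 and 57.2 and 50.4 with DAC, changes of -1.26 ± 0.10 (adjusted p = 3.88e-11) and -1.37 ± 0.10 (adjusted p = 6.91e-12). In THP1 it stood at 161 and 142, 112 and 101, and 109 and 93.6 FPKM and passed with both. The NOMO1 values were 113 and 99.9, 108 and 103, and 99.2 and 104 FPKM, where the groups overlapped and neither change, -0.01 ± 0.10 and -0.07 ± 0.10, passed. MKI67 had the largest standard error of the members. It changed by -0.92 ± 0.28 (adjusted p = 0.0114) in MV411 under GSK032, by -1.05 ± 0.31 (adjusted p = 0.00714) in THP1 under DAC and, in NOMO1 under GSK032, by 0.43 ± 0.20 (adjusted p = 0.151) with libraries at 12.66 and 10.52 FPKM in DMSO and 17.0 and 14.6 with the compound. That value is the largest change in size among the 40 members in NOMO1 under GSK032 and did not pass.

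**Figure D2:**
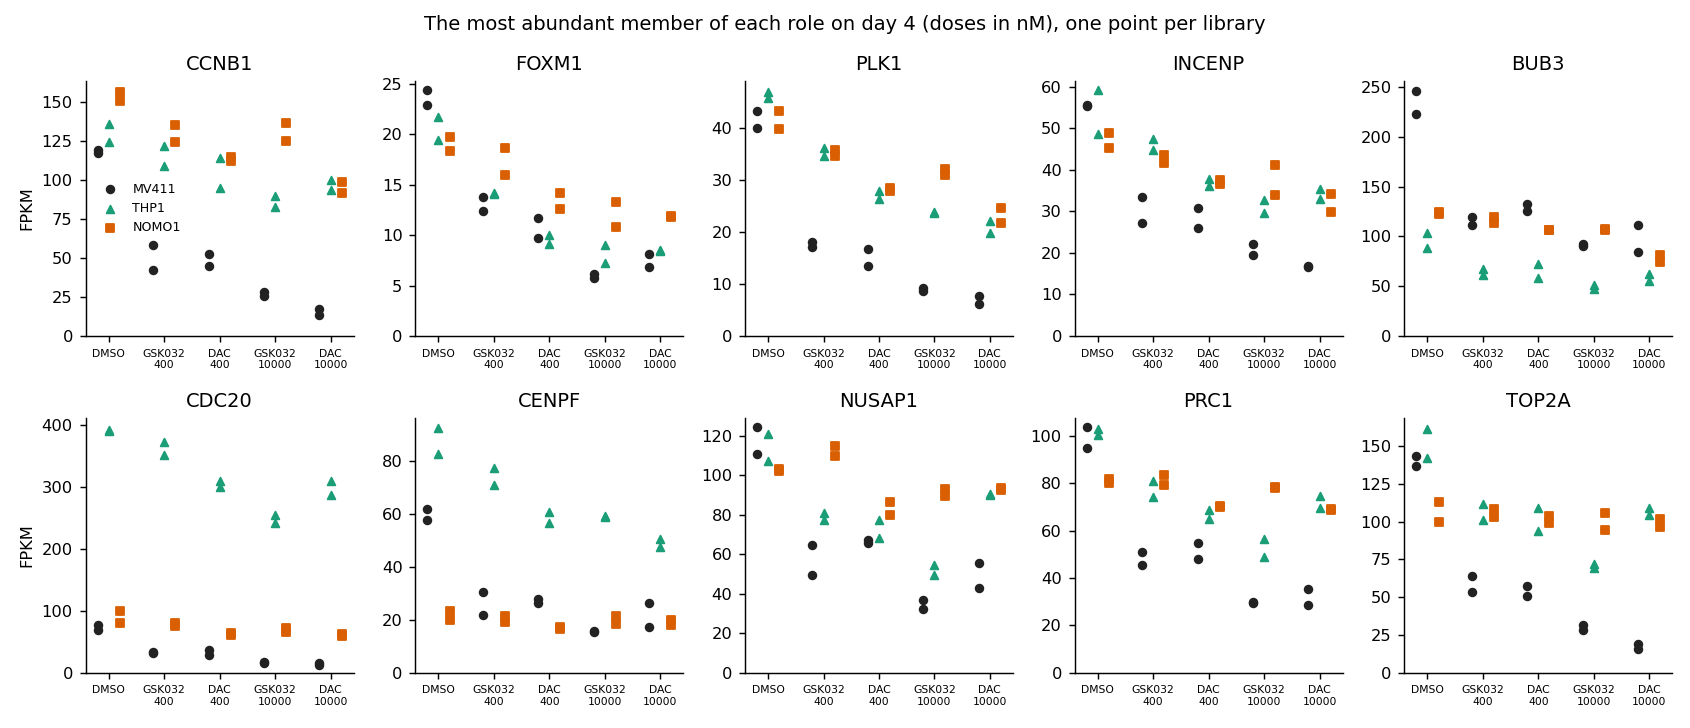
FPKM of the most abundant member of each of the 10 roles in DMSO and with 400 or 10000 nM of GSK032 or DAC for 4 days, 1 point per library, in MV411 (circles), THP1 (triangles) and NOMO1 (squares). The MV411 points drop at 400 nM and again at 10000 nM in every panel, with the CENPF libraries of the 2 DAC doses overlapping, while NOMO1 points for TOP2A stay between 94.5 and 113 FPKM.

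The changes of members with and without CHR letters near the start were set side by side. Only TTTGAA and TTCGAA were searched, so a member without these letters may hold another form of the element. The 16 members with CHR letters within 60 bases of the start had a median log2 change of -1.03 under GSK032 in MV411, against -1.18 for the 17 members with an entry but without them. Under DAC the medians were -1.14 and -1.13. In THP1 they were -0.39 and -0.36 under GSK032 and -0.57 and -0.57 under DAC, and in NOMO1 -0.02 and -0.06, and -0.32 and -0.32. CCNB2, PLK1, CDCA8 and HMMR, with CHR letters in the windows printed above, changed by -1.26, -1.43, -1.18 and -1.14 under DAC in MV411. CDC20, counted among those without them because its CHR letters lie farther out, changed by -1.16. MAD2L1, with neither motif in its 100 bases but both elsewhere in its window, changed by -1.46. The order of the members by their change was only loosely shared between lines. Over the 40 members, Pearson's r of the GSK032 changes was 0.39 between MV411 and THP1, 0.37 between MV411 and NOMO1 and 0.19 between THP1 and NOMO1, and for DAC 0.17, 0.26 and 0.28. The genes of a line share its DMSO libraries and are not independent replicates.

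The response of the members to dose was graded in MV411. At 3.2 and 16 nM GSK032, 0 members passed in limma (0% and 0.0409% of all genes lower) and 0 had an unadjusted p under 0.05 in the lower direction. At 80 nM 33 of 40 passed as lower (8.62%) with a median of -0.50. Their number was 40 at 400, 2000 and 10000 nM (17.3%, 21.9% and 24.6%), with medians of -1.13, -1.84 and -1.92. Under DAC, 0 passed at 16 nM (1.21% of genes lower), where 4 were higher at an unadjusted p under 0.05, and 3 were lower at 80 nM (3.91%), BUB1B, CCNA2 and TOP2A. At 400, 2000 and 10000 nM 40 of 40 passed (19%, 26.6% and 30.1%), with medians of -1.13, -2.23 and -2.43. Per 5-fold step of dose the median slope over the 6 doses in MV411 was -0.45 for GSK032 and -0.60 for DAC, and 40 of 40 members passed for each (28.3% and 32.5% of all genes).

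CCNA2 shows the range of the MV411 response. It stood at 75.8 and 73.8 FPKM with 3.2 nM DAC, 59.2 and 52.2 with 80 nM, 8.69 and 7.46 with 2000 nM and 6.00 and 5.52 with 10000 nM, a change of -3.52 ± 0.10 (adjusted p = 4.86e-21) at the top dose. With GSK032 the values were 74.1 and 66.2, 42.6 and 41.8, 16.1 and 14.5, and 12.6 and 13.2 FPKM at the same doses. DMSO libraries of day 4 stood at 75.2 and 67.7 FPKM. The GSK032 libraries at 2000 and 10000 nM of CCNA2 lay above the DAC libraries of the same doses. ESPL1 was the member with the smallest fall at 10000 nM DAC in MV411, -0.91 ± 0.14 (adjusted p = 1.47e-06), and the only one that did not reach 2-fold there (12.5% of all genes fell by 2-fold or more).

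**Figure D3:**
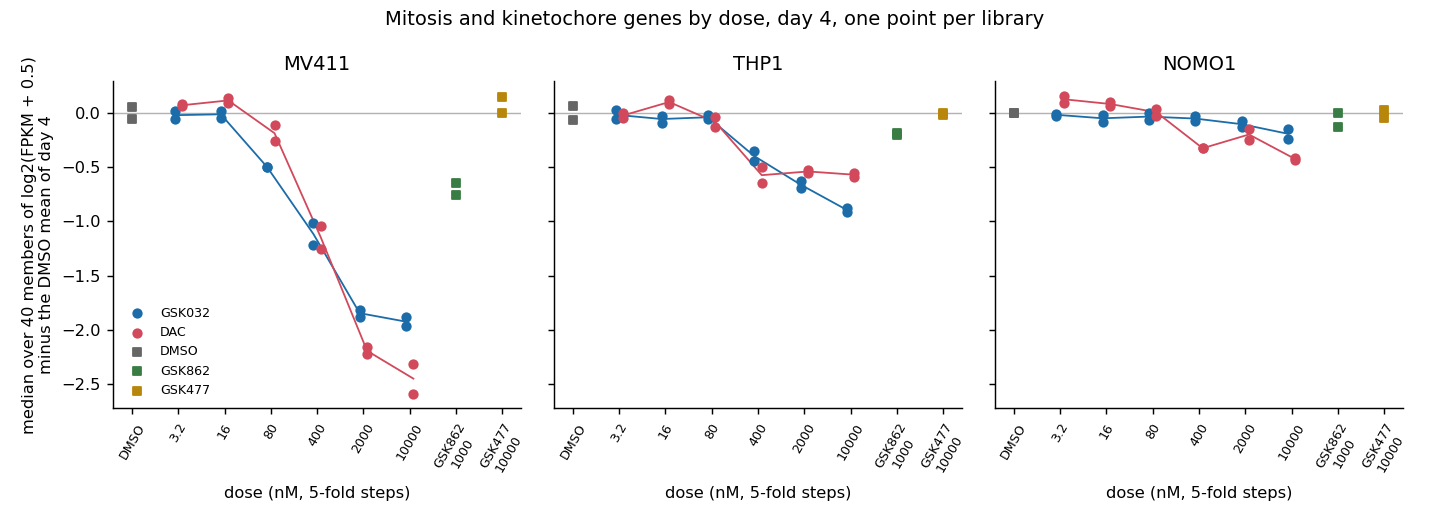
Median over the 40 members of log2(FPKM + 0.5) minus the mean of the DMSO libraries of day 4, for each library (point) by dose in 5-fold steps; lines join group means, and squares show DMSO, GSK862 and GSK477. In MV411 the 2 libraries with 10000 nM stood at -1.97 and -1.88 under GSK032 and -2.31 and -2.59 under DAC.

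THP1 had smaller medians and, under DAC, much the same median from 400 nM on. Under GSK032 the members that passed as lower in limma numbered 0 at 16 and 80 nM (0% and 0.0775% of genes), where 0 and 3 were lower at an unadjusted p under 0.05, 39 at 2000 nM (19.1%) and 40 at 10000 nM (21.6%), with medians of -0.67 and -0.93 at the higher 2 doses, and 2 and 11 fell by 2-fold or more (1.47% and 2.75%). FOXM1 (-1.30), MAD2L1 (-1.26) and CCNB2 (-1.19) had the largest falls at 10000 nM. Under DAC 4 were lower at 80 nM (6.6%), FOXM1, PLK1, KIF23 and BUB1B, and PTTG1 was higher at 16 nM by 0.32 ± 0.07 (1.34% of genes higher). At 2000 and 10000 nM DAC 38 and 39 were lower (23.8% and 26.2%) with medians of -0.55 and -0.55, beside -0.56 at 400 nM. HMMR, a hyaluronan receptor that binds spindle microtubules, stood at 54.5 and 46.6 FPKM with DMSO in THP1 and at 52.4 and 46.2 with 10000 nM DAC, against 27.4 and 25.8 with 10000 nM GSK032. The DAC and DMSO libraries of HMMR overlapped, and its change under DAC was -0.04 ± 0.13 (adjusted p = 0.862). The slopes in THP1 had medians of -0.19 per 5-fold step for GSK032 (40 lower, 25.6%) and -0.14 for DAC (39 lower, 31.8%).

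In NOMO1 the count under GSK032 was larger at the higher doses, and so was the share of all genes that passed as lower. The members that passed as lower in limma numbered 0 at 16 and 80 nM (0.00482% and 0.0241% of genes), where 0 and 1 were lower at an unadjusted p under 0.05, 7 at 2000 nM (16.1%) and 16 at 10000 nM (22.3%), a share of 40% at the top dose, where the median was -0.20. The 7 at 2000 nM are near the share of all genes. At 10000 nM FOXM1 (-0.65 ± 0.12 (adjusted p = 4.6e-05)), CCNB2 (-0.55) and TPX2 (-0.52) fell most. DAC at 16 nM gave 4 higher (4.87%), UBE2C, PTTG1, KIF2C and KIF4A. At 80 nM it gave 2 lower, CENPE and CCNA2 (18%), and 4 higher (20.6%), and at 2000 nM 18 lower (27.2%) and 3 higher, UBE2C, KIF4A and NDC80 (28.2%). At 10000 nM 26 were lower (29%) with a median of -0.40, and CCNA2 (-1.25), MAD2L1 (-1.18) and NUF2 (-1.08) fell by 2-fold or more (9.43%). After rescaling to the same sum the counts at 10000 nM were 5 under GSK032 and 17 under DAC. In NOMO1 NUF2 stood at 31.9 and 30.6 FPKM with DMSO, 25.3 and 24.7 with 400 nM DAC and 14.1 and 15.0 with 10000 nM DAC, and at 31.6 and 30.7 with 10000 nM GSK032. Only the DAC libraries left the range of DMSO. The slopes passed as lower for 16 members under GSK032, with 3 higher (24.8% and 25.5%), and for 7 after rescaling to the same sum. Under DAC 33 passed as lower, as did 6720 of all 20763 genes, with a median slope of -0.10, and the 33 were 19 after rescaling.

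In MV411 most of the fall came between day 2 and day 4. With 400 nM GSK032, 0 members passed on day 1 (0.00454% of genes lower), with 0 lower at an unadjusted p under 0.05, and 1 on day 2, BUB3 at -0.47 ± 0.11 (2.48%). On day 4 all 40 passed, and on day 6 40 again (16.7%) with a median of -1.53, 39 of them by 2-fold or more (4.23%). MV411 cells with DAC had 9 members lower on day 1 (1.69%), with PLK1 (-0.68 ± 0.12 (adjusted p = 0.000934)) the largest beside CDCA8, UBE2C, CCNA2, KIF2C, BUB1B, CENPA, BUB1 and TOP2A, and 9 on day 2 (6.96%), BUB1B at -0.47 ± 0.09 the largest. On day 6 the DAC count was 40 (16.7%) with a median of -1.48. The change on day 6 minus the change on day 1 passed as lower for 40 of 40 members under each compound in MV411 (10.2% and 7.7% of all genes), with medians of -1.62 and -1.22.

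PLK1 stood at 58.4 and 57.3 FPKM in the MV411 DMSO libraries of day 1, 57.3 and 64.6 with GSK032 and 41.0 and 31.4 with DAC. Both DAC libraries were below both others by then, and the GSK032 libraries were not. On day 6 PLK1 stood at 44.8 and 47.2, 11.9 and 13.1, and 10.2 and 10.3 FPKM, changes of -1.84 ± 0.12 (adjusted p = 1.69e-13) and -2.11 ± 0.12 (adjusted p = 1.46e-14). The comparison of the compounds on day 1 in MV411 gave 6 members higher under GSK032 than DAC (0.159% of genes), with PLK1 at 0.75 ± 0.12 (adjusted p = 0.00292). On day 2 it gave 0 in limma (0.736% of genes lower and 0.559% higher), and 11 were higher at an unadjusted p under 0.05. The MV411 DMSO libraries drifted as well: CCNB1, CCNA2, CDCA8, MAD2L1 and CDC20, 5 in all, were lower on day 6 than on day 1 (6.97%), CCNB1 by -0.42 ± 0.12 (adjusted p = 0.0219). That count was 1 after rescaling to the same sum and ran from 0 to 7 when each library was left out in turn.

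**Figure D4:**
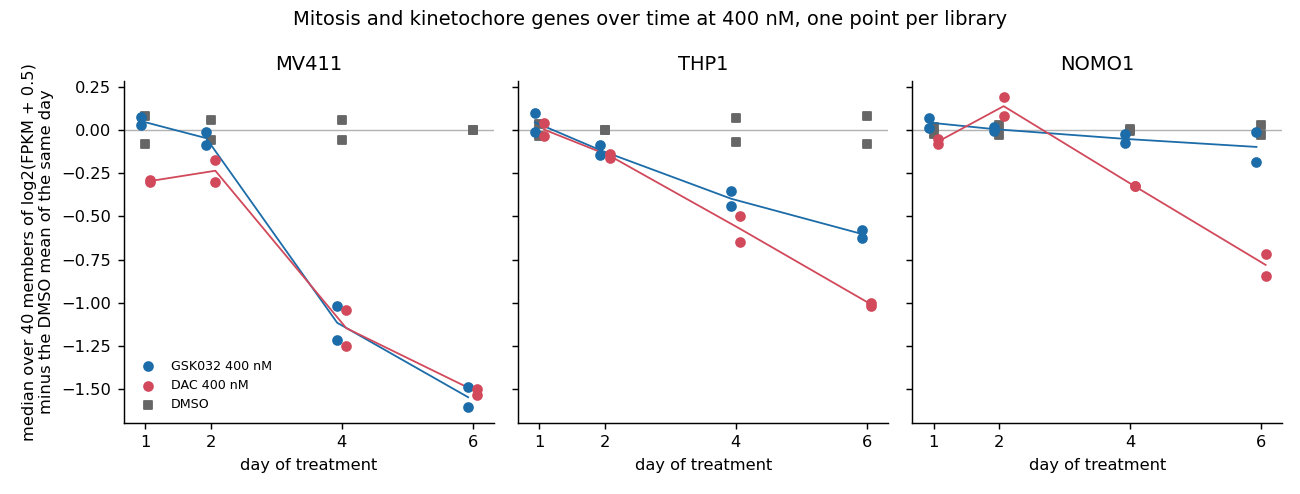
Median over the 40 members of log2(FPKM + 0.5) minus the mean of the DMSO libraries of the same day, for each library (point) on days 1, 2, 4 and 6 with 400 nM GSK032 or DAC, and for DMSO (squares). On day 6 the NOMO1 libraries stood at -0.01 and -0.18 under GSK032 and -0.72 and -0.84 under DAC.

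In THP1 GSK032 gave 0 members in limma on day 1 (0.00861% of genes lower), with 0 lower at an unadjusted p under 0.05, 3 on day 2 (4.12%), MAD2L1, BIRC5 and CCNA2, and 39 on day 6 (17.3%) with a median of -0.61. The 39 were 21 after rescaling to the same sum. DAC gave 2 on day 1 (0.702%), KIF2C and BUB1B, 5 on day 2 (6.26%), FOXM1, PLK1, KIF4A, BUB1B and PRC1, and 40 on day 6 (23.1%) with a median of -1.03, 22 of them by 2-fold or more (3.84%). The largest fall on day 6 under DAC was that of MAD2L1, from 109 and 88.8 FPKM with DMSO to 35.2 and 39.9 with DAC, -1.38 ± 0.08 (adjusted p = 4.61e-14), while GSK032 libraries stood at 49.4 and 48.9. The 3 groups of MAD2L1 did not overlap. The DMSO libraries of THP1 drifted too: 21 members were higher on day 6 than on day 1 (2.84% of genes), with a median of 0.30, CDK1 by 0.54 ± 0.11 and BUB3 by 0.49 ± 0.11. The 21 were 1 after rescaling to the same sum, 5 when the second DMSO library of day 1 was left out and 4 when the first of day 6 was. The change on day 6 minus that on day 1 passed as lower for 38 members under GSK032 (9.57%), a count of 4 after rescaling to the same sum, and for 39 under DAC (14.8%).

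In NOMO1 most members were lower on day 6 under DAC and few under GSK032. GSK032 gave 0 members in limma on days 1 and 2 (0.00963% and 0.424% of genes lower), with 1 and 2 higher at an unadjusted p under 0.05, and on day 6 13 lower (14%) and 1 higher (15%), with a median of -0.09. The member that was higher was NUSAP1, at 0.31 ± 0.08 (adjusted p = 0.00293). The 13 were 2 after rescaling to the same sum, 3 when only the libraries of day 6 were fitted and 6 when the second GSK032 library was left out. DAC gave 1 lower on day 1, KIF2C (0.949%), and 8 higher on day 2 (11.8%), among them UBE2C (0.64), TOP2A (0.37) and PTTG1 (0.32). On day 6 40 of 40 were lower under DAC (28.9%), 9 by 2-fold or more (9.75%), with a median of -0.76. The 40 were 23 after rescaling to the same sum. CDC20 stood at 93.9 and 102 FPKM with DMSO on day 6 in NOMO1, 63.1 and 69.2 with GSK032 and 33.3 and 37.4 with DAC. Its changes, -0.56 ± 0.10 (adjusted p = 5.35e-05) and -1.46 ± 0.10 (adjusted p = 1.7e-13), put both compounds below DMSO and DAC lowest. PLK1 (-1.37) and CCNA2 (-1.34) followed under DAC, and UBE2C (-0.37) had the smallest fall. The change on day 6 minus that on day 1 passed as lower for 6 members under GSK032 (6.12%), CDC20, PLK1, CCNB2, CCNA2, UBE2C and CDCA8, and for 37 under DAC (22.6%). After rescaling to the same sum these counts were 0 and 7. The first was 3 when any of 3 libraries was left out, the first DMSO library of day 6, the first GSK032 library of day 1 or the second of day 6.

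GSK032 and DAC were compared with each other at matched dose and day. In MV411 at 400 nM on day 4, 0 members passed in either direction in limma (3.72% and 3.9% of all genes did), with differences from -0.23 to 0.34 and a median of 0.03. With the libraries rescaled to the same sum 12 were higher under GSK032. The 95% interval of the difference was -0.15 to 0.24 for CCNA2 and -0.37 to 0.03 for CDK1. On day 6 0 passed either in limma (3.29% and 5.62% of genes did), with 2 lower and 1 higher at an unadjusted p under 0.05 and differences from -0.27 to 0.27. At 80 nM 6 were lower under GSK032 (0.85%), KIF20A by -0.49 ± 0.09 the largest. At 2000 nM 21 were higher under GSK032 (18.6%) and 1 lower (11.5%), and at 10000 nM 23 higher (24.1%) and 4 lower (14.2%). BUB1 (1.13), CCNA2 (1.101) and CDCA8 (1.05) differed by 2-fold or more at 10000 nM, and NUSAP1 (-0.50), CENPF (-0.45), ESPL1 (-0.37) and FOXM1 (-0.30) were lower under GSK032. After rescaling to the same sum the counts at 10000 nM were 34 and 0, and the 4 lower were also 0 when the first DAC library was left out. BUB1 stood at 15.4 and 17.9 FPKM with 10000 nM GSK032 and 7.76 and 6.85 with DAC, against 62.0 and 60.4 with DMSO. All 3 groups of BUB1 were apart.

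In THP1 the order of the compounds turned with dose. On day 1 at 400 nM BUB1B was higher under GSK032 (0.138% of genes), at 80 nM on day 4 FOXM1 was (4.02%), and at 16 nM CCNA2 and PTTG1 were lower (2.42%). At 400 nM 12 members were higher under GSK032 than DAC on day 4 (10.1%), FOXM1 the largest, and 35 on day 6 (12%), with a median of 0.39 and KIF20A at 0.65 ± 0.08 (adjusted p = 3.62e-07). At 2000 nM 14 were lower under GSK032 (20.6%) and 3 higher (13.7%). At 10000 nM 18 were lower (22.5%) and 1, BUB1, higher by 0.35 ± 0.06 (18.3%). HMMR (-0.87 ± 0.13 (adjusted p = 1.46e-06)), NUSAP1 (-0.79), CDK1 (-0.79) and KIF4A (-0.66) differed most. CDK1 stood at 88.1 and 76.8 FPKM with DMSO, 34.9 and 38.1 with 10000 nM GSK032 and 67.6 and 59.4 with 10000 nM DAC. The GSK032 libraries were the lowest of the 3 groups, which did not overlap. After rescaling to the same sum, the 18 lower at 10000 nM were 4 and the 12 higher at 400 nM were 22. The 12 were also 5 when the second DAC library was left out and 6 when the first GSK032 library was. The 35 on day 6 were 11 when only the libraries of that day were fitted.

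In NOMO1 few members differed between the compounds early or at low dose. On day 1 at 400 nM KIF2C was higher under GSK032 (0.544% of genes), and on day 2 CCNB2, UBE2C, NDC80, KIF4A and TOP2A were lower (8.55%), UBE2C by -0.48 ± 0.07. KIF2C was lower at 3.2 nM on day 4 (0.279%), 5 members were lower at 16 nM (4.31%), and at 80 nM 7 were lower (18.5%) and CCNA2 higher (15.9%). Most members were higher under GSK032 at 400 nM: 21 on day 4 (23.2%), with 1 lower (22.4%), and 39 on day 6 (26.2%), with a median of 0.67. AURKB (1.07 ± 0.09 (adjusted p = 6.6e-11)), KIF20A (1.03) and ANLN (1.02) differed by 2-fold or more on day 6. AURKB stood at 57.4 and 66.6 FPKM with DMSO, 52.4 and 52.6 with GSK032 and 23.5 and 25.9 with DAC on that day, and the 2 DAC libraries were far under the others. At 2000 nM 11 were higher (23.6%) and 4 lower (22.3%), CCNB2, UBE2C, KIF4A and TPX2. At 10000 nM 20 were higher under GSK032 (26.2%) and 2 lower (22.4%), TPX2 (-0.40) and UBE2C (-0.26). NUF2 was the member that differed by 2-fold or more at 10000 nM, by 1.07 ± 0.15 (adjusted p = 4.48e-07). After rescaling to the same sum the 21 on day 4 were 4, the 39 on day 6 were 22, and the 20 and 2 at 10000 nM were 12 and 0.

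**Figure D5:**
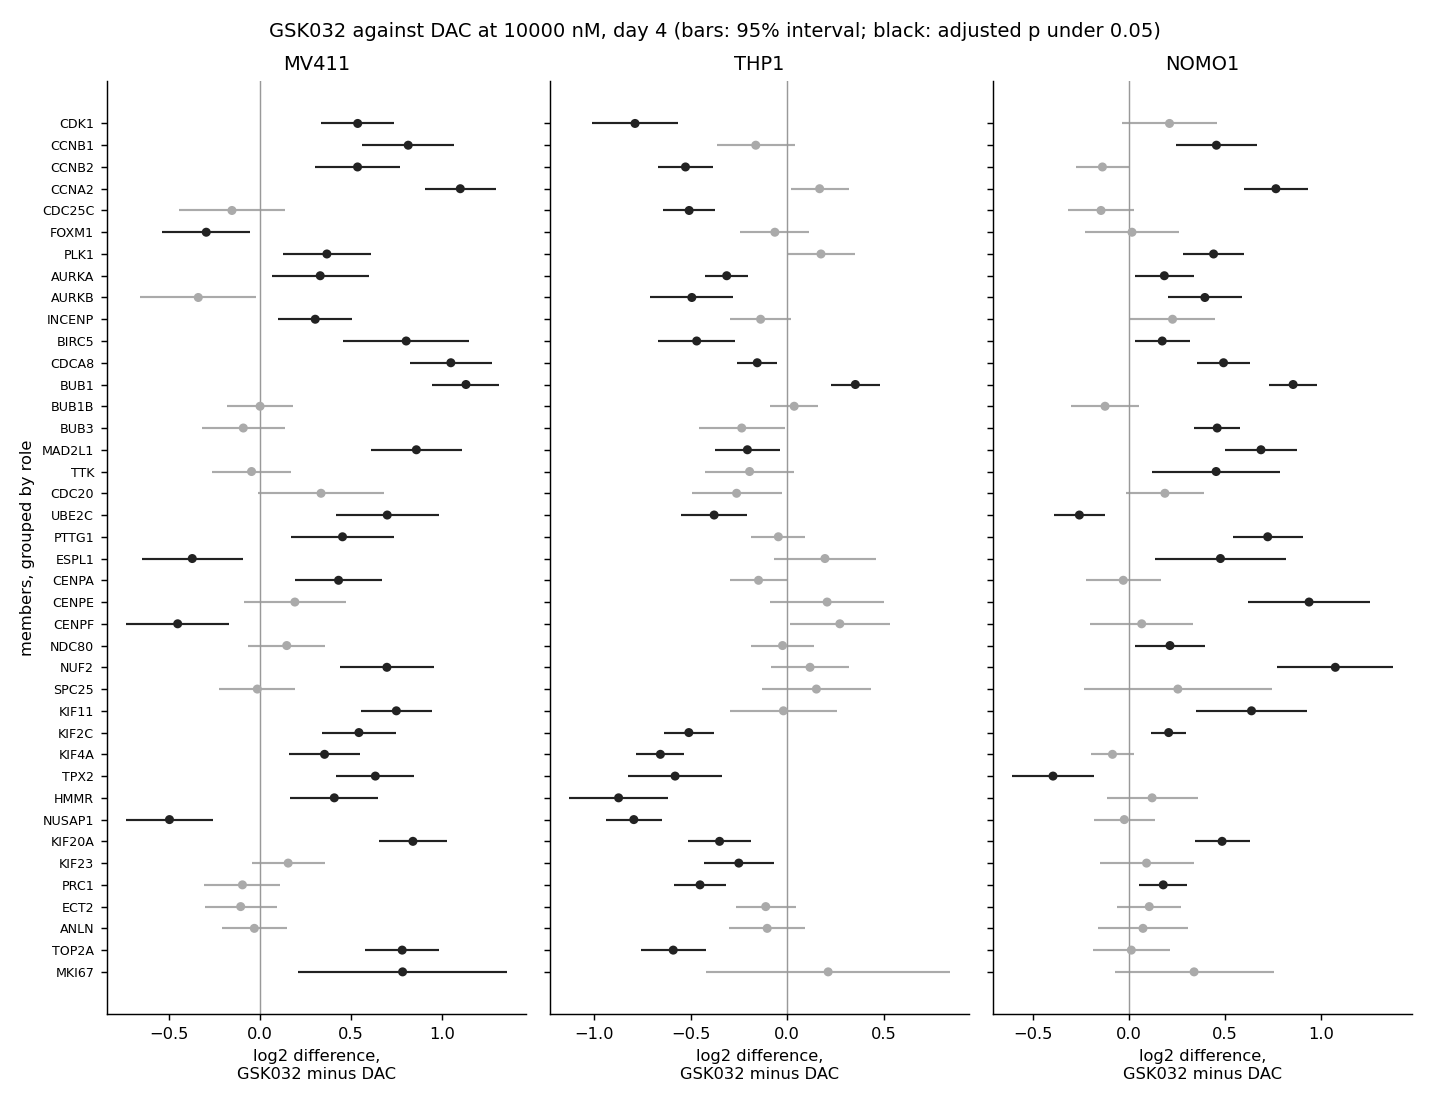
Difference of log2(FPKM + 0.5) between GSK032 and DAC at 10000 nM on day 4 for each of the 40 members, with 95% intervals; black marks an adjusted p under 0.05 and values below 0 are lower under GSK032. The black points lie mostly right of 0 in MV411 (23 of 27) and NOMO1 (20 of 22), and left of 0 in THP1 (18 of 19).

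The other compounds were given at other doses, so their values stand beside these without a comparison, except GSK477, which shared the dose of 10000 nM. GSK862 at 1000 nM for 4 days left 39 of 40 members lower in MV411 (11.6%), with a median of -0.68, and only CCNA2 (-1.07 ± 0.10 (adjusted p = 8.3e-10)) reached 2-fold. MKI67 was the member that did not pass. GSK862 gave 15 lower in THP1 (5.96%), with FOXM1 at -0.54 ± 0.09, and 2 lower in NOMO1 (7.37%), MAD2L1 and CCNA2, with UBE2C higher by 0.22 ± 0.07 (10.5%). The THP1 count of 15 was 1 after rescaling to the same sum, 7 with no filter on low values, 8 without the trend of the variance, 9 when only the libraries of day 4 were fitted, and 1 to 10 when libraries were left out in turn. The 2 in NOMO1 were 0 after rescaling. On day 2 GSK862 gave 0 lower in any line in limma (1.49% of genes in MV411, 0.84% in THP1 and 1.04% in NOMO1), with 1, 2 and 1 at an unadjusted p under 0.05, and NUSAP1 was higher in NOMO1 (1.67%). GSK477 at 10000 nM gave 0 members in either direction in limma on day 4. The background was 1.11% lower and 0.286% higher for MV411, 0.228% and 0.146% for THP1, and 0.361% and 0.978% for NOMO1. At an unadjusted p under 0.05 the GSK477 counts were 0 in MV411, 1 lower in THP1 and 1 higher in NOMO1.

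GSK032 at 10000 nM was lower than GSK477 at 10000 nM on day 4 for 40 of 40 members in MV411 (26.9%), 40 in THP1 (21.5%) and 17 in NOMO1 (21.4%). DAC was lower than GSK477 for 40 (31.1%), 39 (26.5%) and 27 (28.9%), with 1 higher in NOMO1 (27.9%). The NOMO1 counts were 2 and 15 after rescaling to the same sum. CCNB1 stood at 114 and 133 FPKM with GSK477 in MV411, at 127 and 123 in THP1, and at 153 and 142 in NOMO1. With 10000 nM GSK032 it stood at 25.6 and 28.4, 89.9 and 82.3, and 136 and 125 FPKM. Only in MV411 and THP1 were these groups far apart, and CCNB1 differed between GSK032 and GSK477 by -2.17 ± 0.12 (adjusted p = 7.56e-15) in MV411, -0.53 ± 0.10 (adjusted p = 6.01e-05) in THP1 and -0.18 ± 0.10 (adjusted p = 0.181) in NOMO1.

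Other genes of the same machinery moved with the members at 400 nM on day 4 in MV411. Over all tested genes the share higher under GSK032 and DAC was 15.9% and 16.8% for MV411, 9.21% and 19.1% for THP1, and 10.2% and 26.1% for NOMO1, and the shares lower are those given for the members. Of 29 other centromere and kinetochore genes tested in MV411, 28 were lower under GSK032 and 26 under DAC, and of 28 other spindle and cytokinesis genes 27 and 27. CENPH (-1.34 ± 0.14) and CENPW (-1.35 ± 0.16), of the inner kinetochore, and HJURP (-1.33 ± 0.15), which loads CENPA, fell most among the former under GSK032. Of 19 condensin and cohesin genes 14 and 16 were lower, with NCAPH at -1.36 ± 0.12 and SGO1, which guards centromeric cohesion, at -1.17 ± 0.09 under GSK032. Of the 17 APC/C subunits and regulators 9 were lower and 1 higher under GSK032, with a median of -0.36, and FBXO5, an inhibitor of the APC/C, fell by 1.23 on the log2 scale. All 30 S-phase genes were lower with both compounds in MV411, with medians of -1.16 and -1.24, beside -1.13 and -1.13 for the 40 members. RRM2, a subunit of ribonucleotide reductase, fell most under GSK032, at -1.58 ± 0.13, and MCM6, of the replicative helicase, under DAC, at -1.73 ± 0.13. MYBL2, which encodes B-MYB, changed by -1.39 ± 0.15 and -1.39 ± 0.15.

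In THP1 the lists gave 23 and 23 of 29 other kinetochore genes lower under GSK032 and DAC, with 1 higher under DAC, 13 and 22 of 28 other spindle genes, and 29 and 30 of 30 S-phase genes with medians of -0.65 and -0.71. ZWINT, a kinetochore scaffold, changed by -0.91 ± 0.06 under GSK032 in THP1 and STMN1, which destabilises microtubules, by -1.12 ± 0.10. In NOMO1 the counts under GSK032 were 1 lower and 1 higher of 29, 1 of 28 and 6 of 30, and under DAC 19 lower and 2 higher, 14 lower and 2 higher, and 27 lower and 1 higher. The S-phase genes had a median of -0.66 under DAC there, beside -0.32 for the 40 members, and MCM2 changed by -1.22 ± 0.09. The SKA1 gene of the outer kinetochore was the NOMO1 gene that was higher under GSK032, at 0.39 ± 0.11, and MIS18A, which primes centromeres for CENPA, fell by 1.25 on the log2 scale under DAC.

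Of the inhibitors of cyclin-dependent kinases, CDKN1C moved the other way. It encodes p57 and is known to be silenced by DNA methylation in several tumours. In MV411 it stood at 0.751 and 0.725 FPKM with DMSO on day 4, 6.39 and 4.68 with 400 nM GSK032 and 15.2 and 17.8 with 400 nM DAC, changes of 2.27 ± 0.24 and 3.78 ± 0.24. In THP1 CDKN1C stood at 1.84 and 1.88, 4.09 and 4.93, and 16.8 and 15.2 FPKM. In NOMO1 it stood at 1.89 and 1.69, 4.07 and 3.26, and 22.0 and 26.2 FPKM. CDKN1C was higher with either compound in every line, with changes of 1.08 ± 0.15 and 2.80 ± 0.15 in THP1 and 0.86 ± 0.19 and 3.42 ± 0.19 in NOMO1.

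At 400 nM on day 4 CDKN1A, which encodes p21, was higher under DAC in every line and lower under GSK032 in MV411. It stood at 48.3 and 49.5 FPKM with DMSO, 33.9 and 28.4 with 400 nM GSK032 and 87.4 and 82.8 with 400 nM DAC. The 3 groups did not overlap, with GSK032 under DMSO and DAC above it, and GSK032 minus DAC was -1.44 ± 0.20 (adjusted p = 1.74e-05) for CDKN1A. In THP1 CDKN1A stood at 11.1 and 13.2 FPKM with DMSO, 9.03 and 11.0 with GSK032 and 32.7 and 35.9 with DAC, and in NOMO1 at 40.8 and 42.9, 47.3 and 47.9, and 105.9 and 125 FPKM. Its changes under DAC were 1.46 ± 0.20 (adjusted p = 6.54e-07) in THP1 and 1.45 ± 0.14 (adjusted p = 6.08e-10) in NOMO1, while those under GSK032, -0.27 ± 0.20 and 0.18 ± 0.14, did not pass. With 10000 nM for 4 days CDKN1A stood in NOMO1 at 71.87 and 91.78 FPKM under GSK032 and 56.55 and 64.42 under GSK477, all above DMSO. The same dose of GSK032 gave 23.8 and 26.43 FPKM in MV411, below DMSO, and 13.52 and 16.07 in THP1. Among the other genes of this list CDK2 changed by -1.32 ± 0.16 under GSK032 in MV411, CDKN2B, the inhibitor p15, by 1.55 ± 0.23 under DAC in MV411, and CCND1, cyclin D1, by 1.796 ± 0.195 under DAC in NOMO1. Of the 13 genes of this list tested in MV411, 7 were lower and 2 higher under GSK032, and 5 lower and 4 higher under DAC. The 2 higher under GSK032 are near the 15.9% of all genes.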

How the data were processed

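RNA was taken from 3 cell lines and sequenced as 156 libraries in 78 groups of 2. Per the submitters' processing notes, transcripts were quantified with Salmon 0.12.0 on hg38, and DESeq2 is named there as well; its version and role are not given in the sources used here. The authors deposited 1 table per line in FPKM, without counts, so no count test was run. Ensembl identifiers were matched to symbols through GENCODE. In MV411 the day 4 columns of GSK862 share a single header, as do those of GSK477. The replicate number of these 4 columns is therefore not known. Steps between low values of single-transcript genes gave an estimate of the scale of each library, in units of 1000000 fragments. It was 43.5 to 94.5 for MV411, 38.1 to 102 for THP1, and for NOMO1 55.0 to 144. It is only an estimate, since 54.7 to 90.0% of those values were within 0.15 of a whole number of fragments. The scale is the depth only where FPKM were divided by the total of mapped fragments.

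Here, log2(FPKM + 0.5) of the deposited values was fitted per line with limma 3.58.1 (R 4.3.3, trended variance) as 26 group means over 52 libraries, with 26 residual degrees of freedom. Genes with at least 1 FPKM in 2 or more libraries entered the tests, which makes 22007 for MV411, 23226 for THP1 and 20763 for NOMO1. P-values were adjusted by Benjamini-Hochberg over all of them. With 2 libraries a group, an exact permutation test of 1 gene cannot go below p = 0.333. Lines were not tested against each other, because their tables may be scaled apart. The members, roles and other lists were chosen with earlier results of these data known. Named genes are the most abundant member of each role in DMSO on day 4, the 3 largest and 2 smallest changes at 400 nM on day 4, any member that passed against the others, and up to 3 genes of each other list. BUB1, HMMR, NUF2, AURKB, CDK1 and KIF20A at other doses and days, and CDKN1A, were chosen after their values were seen, as were the printed promoters. The deposited tables of fold changes were not used. The fit was tested on simulated data. Alternatives were other pseudocounts, filters, scalings and variance models, the replicate number as a block, fits of a single day, and leaving out each library in turn.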

Additional observations from a re-analysis of the deposited data

Results flagged for a closer look

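The effect of 400 nM on the members was larger on day 6 than on day 1, by a test of the difference itself in limma. Under GSK032 this held for 40 members in MV411 (10.2% of all genes), 38 in THP1 (9.57%) and 6 in NOMO1 (6.12%). Under DAC it held for 40 (7.7%), 39 (14.8%) and 37 (22.6%) in the same order of lines. After rescaling to the same FPKM sum, the THP1 count under GSK032 and both NOMO1 counts were far smaller. The DMSO libraries also drifted in THP1, where CDK1, BUB3 and 19 other members were higher on day 6 than on day 1 (2.84% of all genes). That count ran from 4 to 23 when each library was left out in turn, and was far smaller after rescaling.

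Some members had both libraries above DMSO in NOMO1 and both below it in another line at 400 nM on day 4. Under GSK032 these were UBE2C, KIF2C, NUSAP1 and MKI67, whose log2 differences from DMSO in NOMO1 were 0.15, 0.06, 0.13 and 0.43. None of the 4 NOMO1 values passed the test there. Under DAC it was UBE2C, at 0.33, which did. The difference between the lines was not tested for any of these genes, and how many of all genes showed such a pattern was not counted.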

How the results depend on the processing

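With 2 libraries a group and FPKM in place of counts, the spread of a single group is poorly known and genes cannot be weighted by depth. Counts below are of members that passed at an adjusted p under 0.05 in limma, and medians are log2 changes at 400 nM on day 4. Over all alternatives a count stayed within 1.5 times the reported one in 697 cases and moved further in 67. Each case is 1 result under 1 alternative, and results that were 0 under every alternative are among them. The medians under GSK032 and DAC in each line were refitted likewise. Of these 78 values 1 changed sign, for GSK032 in NOMO1, and 15 moved by at least the spread of library medians within groups. Rescaling every library to the same FPKM sum moved most. At 400 nM on day 4 it shifted the median change of all genes by 0.24 and -0.06 under GSK032 and DAC in MV411. The shifts were -0.01 and -0.31 in THP1, and 0.07 and 0.05 in NOMO1, and all were 0 with the median ratio. In MV411 the same sum gave 12 members higher under GSK032 than DAC at 400 nM on day 4 and 0 lower at 10000 nM. It gave 1 lower in DMSO on day 6 than day 1, and medians of -0.85 for GSK032 and -1.22 for DAC. In THP1 the lower counts were 12 for GSK032 on day 4, 21 on day 6, 1 for GSK862 and 4 for day 6 minus day 1. GSK032 against DAC in THP1 gave 22 higher at 400 nM and 4 lower at 10000 nM, DMSO over time gave 1 higher, and the DAC median was -0.92. In NOMO1 the GSK032 median turned to 0.0391, and that of DAC was -0.22. The NOMO1 lower counts for GSK032 and DAC were 0 and 5 on day 4, 2 and 23 on day 6, 5 and 17 at 10000 nM, 0 and 7 for day 6 minus day 1, 2 and 15 against GSK477, and 7 and 19 for the slopes (16 and 33 as reported), with 0 for GSK862. GSK032 against DAC then gave 4 higher on day 4, 22 on day 6, and 12 higher and 0 lower at 10000 nM. The cause was not tested.

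With no filter on low values GSK862 gave 7 lower in THP1 and GSK032 gave 1 in NOMO1, and without the variance trend GSK862 gave 8 in THP1. With only the libraries of the same day, THP1 gave 9 for GSK862, and 2 higher at 10000 nM and 11 on day 6 for GSK032 against DAC, and NOMO1 gave 3 lower for GSK032 on day 6. The replicate numbers were only shared numbers, and same-numbered libraries had median correlations of their deviations of 0.0802 in MV411, 0.0810 for THP1 and 0.0881 for NOMO1. With the replicate block, GSK032 against DAC in THP1 gave 23 higher at 400 nM and 3 at 10000 nM on day 4. In NOMO1 the block gave 7 lower for GSK032 and 5 for GSK862 on day 4, 11 for GSK032 day 6 minus day 1, and 1 higher in DMSO over time. The causes were not tested.

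Some members changed sign near 0 at 400 nM on day 4. In NOMO1 rescaling put BUB3 at 0.0192, TOP2A at 0.10 and CENPF at 0.0138 under GSK032, and TOP2A at 0.0357 and CDK1 at 0.0757 under DAC. Leaving out a library put ESPL1 at 0.0088 and 0.0365 in THP1 under GSK032. In NOMO1 it put CDK1 at 0.0727, TOP2A at 0.0208 and ESPL1 at -0.0428 under DAC. Under GSK032 it put TOP2A at 0.0798 and 0.0264, CENPF at 0.0258, PRC1 at -0.0086 and -0.0317, and KIF4A at -0.0161 and -0.0091.

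Leaving out each library in turn gave ranges. In MV411 the lower counts ran from 39 to 40 for GSK032 at 400 nM, from 39 to 40 for DAC day 6 minus day 1, from 35 to 38 for GSK862 and from 0 to 7 for DMSO over time. GSK032 against DAC ran from 0 to 1 higher at 400 nM, and from 16 to 22 higher and 0 to 6 lower at 10000 nM, and the medians from -1.22 to -1.02 for GSK032 and -1.25 to -1.04 for DAC. In THP1 the lower counts for GSK032 and DAC ran from 21 to 32 and 35 to 38 on day 4, 36 to 38 and 39 to 40 on day 6, 39 to 40 and 36 to 39 at 10000 nM, 31 to 36 and 38 to 40 for day 6 minus day 1, 39 to 40 and 37 to 38 against GSK477, and 1 to 10 for GSK862. GSK032 against DAC ran from 5 to 12 and 24 to 31 higher on days 4 and 6, with 15 to 18 lower and 1 higher at 10000 nM, DMSO over time from 4 to 23 higher, and the medians from -0.45 to -0.32 and -0.66 to -0.49. In NOMO1 the lower counts ran from 0 to 4 and 23 to 24 on day 4, 6 to 12 and 39 to 39 on day 6, 11 to 15 and 24 to 25 at 10000 nM, 3 to 7 and 30 to 37 for day 6 minus day 1, 12 to 18 and 24 to 25 against GSK477, and 1 to 2 for GSK862. GSK032 against DAC ran from 16 to 18 and 34 to 39 higher on days 4 and 6, with 15 to 16 higher and 1 to 3 lower at 10000 nM, and the medians from -0.08 to -0.03 and -0.33 to -0.31.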

Other observations

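Genes of the G2 checkpoint, which were in no comparison above, also fell in MV411. Of 14 such genes tested there at 400 nM on day 4, 10 were lower under GSK032 and 10 under DAC, with 2 higher under DAC. PKMYT1, the kinase that holds CDK1 inactive, changed by -1.47 ± 0.20 under GSK032, CDC25A, a phosphatase that activates CDK2, by -1.37 ± 0.12, and CHEK1, the checkpoint kinase, by -1.36 ± 0.12. GADD45B, a stress-response gene, changed by 2.20 ± 0.19 under DAC in MV411. In THP1 8 of 14 were lower under GSK032, and 9 lower and 2 higher under DAC. In NOMO1 1 of 15 was lower and 3 higher under GSK032, and 5 lower and 5 higher under DAC. Over all genes there, 8.29% were lower and 10.2% higher under GSK032, and 26.2% and 26.1% under DAC, so the NOMO1 counts of this list are near those shares except for the 3 higher under GSK032. SFN, which encodes the protein 14-3-3 sigma, changed in NOMO1 by 1.51 under GSK032 and 1.06 under DAC.

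The genes of the DREAM, MuvB and E2F complexes, which regulate the members, gave 13 lower of 19 tested in MV411 under GSK032 and 12 under DAC, and 13 and 12 of 20 in THP1. In NOMO1 the counts were 3 lower and 1 higher under GSK032, and 7 lower and 7 higher under DAC, not far from the shares of all genes. TFDP1, the partner of E2F factors, changed by -1.34 under DAC in NOMO1.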
